A study of Mus musculus with 2 samples.

Results

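The genes described here are 9 early response genes, taken by symbol from the 30538 genes of the deposited table. They are the zinc finger transcription factor genes Egr1, Egr2 and Egr3, the orphan nuclear receptor genes Nr4a1, Nr4a2 and Nr4a3, and the genes Ier2, Ier3 and Ier5, whose name stands for immediate early response. All 9 were found under their own symbols, and all 9 passed the filter of a mean of at least 1 CPM (CPM are read counts brought to a common library size, here with edgeR's TMM scaling), which left 11972 measured genes. RNA came from spleen cells of mice infected intravenously with 100000 Listeria monocytogenes and sorted on day 3 as CD11b+, Ly6G- and Ly6C-low, a gate the labels name resident splenic macrophages. Each of 2 genotypes gave 1 library: C57BL/6, and the Ch25h-/- strain, without the enzyme that makes 25-hydroxycholesterol. Both groups were infected, so induction over an uninfected state was not measured, and age, sex and the number of mice per library are not given in the sources used here.

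Gene counts summed to 16957371 for C57BL/6 and to 15986392 for Ch25h-/-. No p-value is given, because a single library stands for each genotype and their spread is unknown. Each ratio is Ch25h-/- over C57BL/6, given on the log2 scale with an exact 95% interval that covers counting error only. A gene was called when its ratio reached 2-fold and its interval excluded 0. The deleted gene, Ch25h, had 3 counts in the C57BL/6 library and 0 in the Ch25h-/- library, too few to check the labels. Genes that mark macrophages were present in each library (Csf1r at 324 and 239 CPM, Adgre1, the gene of F4/80, at 39.7 and 23.4 CPM), but so were markers of natural killer (NK) cells, neutrophils, B cells, T cells and dendritic cells, whose values follow the gene results. In such bulk RNA, fewer cells of a type and less RNA per cell cannot be told apart.

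Early response genes are switched on within minutes of a signal, without new protein synthesis, and their short-lived transcripts report recent signalling. Whether that signalling took place in the infected mouse or while the spleen cells were prepared and sorted was not tested. This holds for the members and for the other early response genes given below. EGR proteins bind GC-rich sites and are driven by ERK kinases through serum response factor (SRF) and its ETS partners, with NAB1 and NAB2 as their corepressors. NR4A proteins are orphan nuclear receptors whose activity follows their amount. They are induced through cAMP and calcium signals by CREB and MEF2 factors, and NR4A1 is needed for Ly6C-low monocytes to form. The IER name covers unlike proteins: IER2 and IER5 are related in sequence, and IER5 acts on heat shock factor HSF1 through the phosphatase PP2A, whereas IER3 is a separate NF-kB target linked to cell survival.

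Promoter sequence is shown first for the members whose upstream bases carry matches to the sites of these upstream factors. The RefSeq promoter table (GRCm38.p6) matched 6 of the 9 genes, and Egr1, Egr3 and Ier2 were not analysed here. The searched window was the 250 bases before each RefSeq start site. The stretches printed below are the parts of that window outside all GENCODE M21 exons, read 5′ to 3′ on the gene's strand. Capitals mark the core of the CREB site, TGACG, on either strand. In Egr2 they also mark the SRF-binding CArG box, in Ier3 only the NF-kB site, and in Nr4a2 also the TATA box letters TATAAA on the opposite strand. The stretches are chr4:48045055-48045152 (plus strand) for Nr4a3, chr15:101266596-101266845 (plus) for Nr4a1, chr2:57124004-57124253 (minus) for Nr4a2, chr10:67537619-67537868 (plus) for Egr2 and chr17:35821463-35821683 (plus) for Ier3.
Nr4a3: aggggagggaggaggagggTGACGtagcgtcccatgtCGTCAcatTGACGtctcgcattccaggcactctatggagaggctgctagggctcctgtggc
Nr4a1: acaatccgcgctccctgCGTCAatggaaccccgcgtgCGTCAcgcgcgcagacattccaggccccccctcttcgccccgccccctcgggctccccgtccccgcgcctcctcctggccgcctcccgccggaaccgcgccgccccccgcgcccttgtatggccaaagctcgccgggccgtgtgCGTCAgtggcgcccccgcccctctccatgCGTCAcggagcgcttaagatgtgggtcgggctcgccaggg
Nr4a2: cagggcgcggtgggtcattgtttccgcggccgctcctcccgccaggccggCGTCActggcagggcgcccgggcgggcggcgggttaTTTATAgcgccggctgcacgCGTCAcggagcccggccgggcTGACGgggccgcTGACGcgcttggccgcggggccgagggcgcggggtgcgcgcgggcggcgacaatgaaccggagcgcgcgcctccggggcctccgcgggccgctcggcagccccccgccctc
Egr2: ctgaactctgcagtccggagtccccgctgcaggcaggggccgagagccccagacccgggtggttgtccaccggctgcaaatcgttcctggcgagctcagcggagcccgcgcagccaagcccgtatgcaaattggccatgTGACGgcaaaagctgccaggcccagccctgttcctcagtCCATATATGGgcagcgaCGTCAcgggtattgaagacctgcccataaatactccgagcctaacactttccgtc
Ier3: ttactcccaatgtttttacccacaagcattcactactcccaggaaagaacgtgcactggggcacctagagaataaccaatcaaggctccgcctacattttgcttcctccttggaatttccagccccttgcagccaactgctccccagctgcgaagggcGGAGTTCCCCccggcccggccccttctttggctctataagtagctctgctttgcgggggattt

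The 3 NR4A promoters each held 4 matches to TGACG. At least 4 such matches were found in 0.137% of all 32851 promoters of the same length, and at least 1 in 17.8%. The limit of 4 equals the count in these genes. GC content was 74.4% for Nr4a1, 80% for Nr4a2 and 63.6% for Nr4a3, against a median of 52.4% over all promoters. TGACG itself contains CG, and the shares over all promoters were not matched for GC content. In Nr4a3 the matches began 231, 213, 205 and 147 bases before the start site, the last of them inside the first GENCODE exon and therefore not printed. In Nr4a1 they began 233, 213, 69 and 40 bases upstream. The full palindrome TGACGTCA, present in 1.55% of promoters, was in none of the members' windows. Egr2 has 5 RefSeq start sites. The window printed, before position 67537869, held 1 CArG box 72 bases upstream and 2 matches to TGACG, and CArG boxes were in 1.47% of all promoters. The Egr2 windows from 67537620 and 67537680 overlap the printed one and hold the same matches. The Egr2 window from 67537316 held another CArG box and no TGACG, and the one from 67535249 held neither. Ier3 alone of the 6 held an NF-kB site, which began 92 bases upstream and overlapped an Sp1 site, and 3.90% of all promoters held one. The Sp1 site GGGCGG was in at least 1 window of all 6 genes and of 35.4% of genes with a promoter, and in 32.7% of promoters. TATAAA was in Nr4a2 and in 12.4% of promoters. The AP-1 site TGACTCA (4.46% of promoters), the EGR site GCGTGGGCG (0.536%) and the NR4A site AAAGGTCA (1.34%) were in none of the members' windows. All motifs were searched on both strands, TGACG lies within TGACGTCA, and a match is a description of letters only.

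Nr4a3 and Ier3 were the members called lower in the Ch25h-/- library, at 2.49-fold and 2.28-fold, and no member was called higher. Nr4a1, Nr4a2, Ier2, Ier5 and Egr2 also had intervals below 0 but did not reach 2-fold, while Egr1 and Egr3 had nearly the same level in each library. Over all measured genes the same rule called 5.77% lower and 2.07% higher, so the members' counts are 2 of 9 and 0 of 9 against those shares. The members' median log2 ratio was -0.43 and that of all measured genes 0.01. Ratios were below 0 for 48.2% of measured genes, and intervals lay wholly below 0 for 7 of the 9 members and for 27.5% of measured genes. These counts describe the genes and test nothing.

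**Figure D1:**
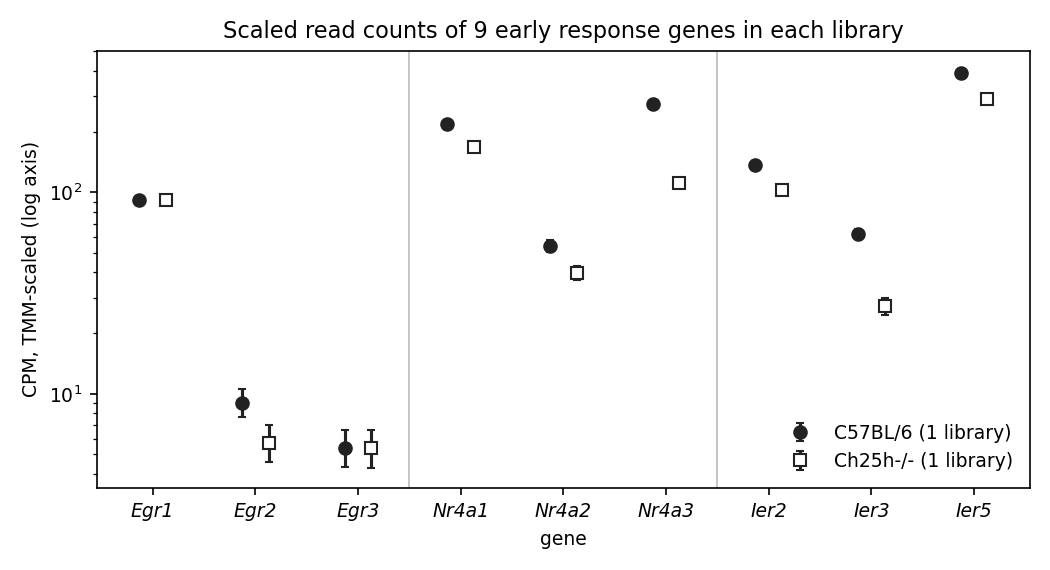
Scaled read counts (CPM, log axis) of the 9 genes in the C57BL/6 library (filled circles) and the Ch25h-/- library (open squares), with exact 95% Poisson intervals as bars. Nr4a3 went from 276 to 111 CPM and Ier3 from 62.1 to 27.2 CPM, while Egr1 stood at 91.6 and 91.7 CPM.

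Nr4a3 (ENSMUSG00000028341, GRCm38 chromosome 4, 48045153 to 48086447, plus strand) encodes NOR-1, a nuclear receptor that has been studied in the migration of dendritic cells. It had 4718 counts in the C57BL/6 library and 1754 in the Ch25h-/- library, which equal 276 and 111 CPM. The log2 ratio was -1.32, with an interval of -1.40 to -1.24 that lay entirely beyond 2-fold. Its ratio ranked 415 from the lowest among the 11972 measured genes, at percentile 3.46. Nr4a3 alone made up 40.8% of the summed difference of 405 CPM between the libraries over the 9 genes, followed by Ier5 with 25.2% and Nr4a1 with 12.7%.

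Nr4a1 (ENSMUSG00000023034, chromosome 15, 101254269 to 101274795, plus strand) encodes NUR77, the receptor tied to Ly6C-low monocytes. It had 3740 counts in the C57BL/6 library and 2649 in the Ch25h-/- library, or 219 and 167 CPM, a log2 ratio of -0.39 (interval -0.46 to -0.31). Nr4a2 (ENSMUSG00000026826, chromosome 2, 57106830 to 57124003, minus strand) encodes NURR1, best known from dopamine neurons. Its 927 and 633 counts equal 54.2 and 40.0 CPM and gave nearly the same log2 ratio as Nr4a1, -0.44 (interval -0.59 to -0.29). The ratio of Nr4a3 was below that of Nr4a1 by 0.93 on the log2 scale (interval 0.82 to 1.04) and below that of Nr4a2 by 0.88 (0.71 to 1.05), whereas the difference between Nr4a1 and Nr4a2, 0.05, had an interval that held 0 (-0.11 to 0.22). These differences come from an odds ratio of 2 genes in 2 libraries, in which the scaling cancels.

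The make-up of the NR4A family differed between the libraries. Per kilobase of exon, Nr4a3 was 37.8% of the family's summed CPM in the C57BL/6 library and 24.3% in the Ch25h-/- library, and Nr4a1 was 51.2% and 62.7%. As a share of the family's counts, Nr4a3 took 50.3% for C57BL/6 and 34.8% for Ch25h-/-, with exact binomial (Clopper-Pearson) intervals of 49.3 to 51.3% and 33.5 to 36.2%. Summed over the family, CPM were 548 for C57BL/6 and 318 for Ch25h-/-, a log2 ratio of -0.79 (interval -0.84 to -0.74), which was -0.40 (-0.46 to -0.33) over Nr4a1 and Nr4a2 alone.

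**Figure D2:**
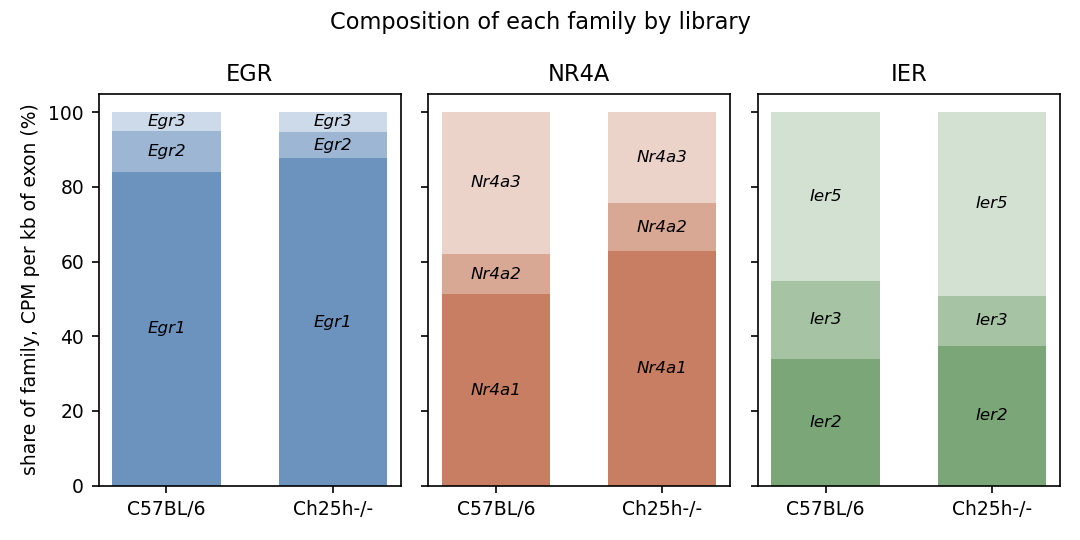
Share of each gene in its family's summed CPM per kilobase of exon (vertical axis, percent) in each library, with 1 panel per family. The Nr4a3 segment is 37.8% in the C57BL/6 bar and 24.3% in the Ch25h-/- bar, the Ier3 segment 20.8% and 13.3%, and Egr1 fills most of the EGR bars.

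Egr1 (ENSMUSG00000038418, chromosome 18, 34859823 to 34864984, plus strand), the EGR member with the widest use as a marker of ERK signalling, had 1567 counts in the C57BL/6 library and 1453 in the Ch25h-/- library. These equal 91.6 and 91.7 CPM, a log2 ratio of 0.00 with an interval of -0.10 to 0.11, and the other scalings gave values from -0.02 to 0.01, so no direction is given. The whole interval lay above those of Nr4a1, Nr4a2, Ier2 and Ier5.

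Egr2 (ENSMUSG00000037868, chromosome 10, 67535475 to 67542188, plus strand) and Egr3 (ENSMUSG00000033730, chromosome 14, 70077203 to 70082614, plus strand), best known in T cells for restraining activation, were scarce. Egr2 had 154 counts in the C57BL/6 library and 90 in the Ch25h-/- library, or 2.65 and 1.67 CPM per kilobase of exon, a log2 ratio of -0.66 (interval -1.06 to -0.28). Its interval reached from well under 2-fold to just past it. Egr3 had 92 and 85 counts, or 5.38 and 5.37 CPM, a log2 ratio within 0.01 of 0 (interval -0.45 to 0.44), and other scalings put it between -0.03 and 0.01. A change of the size seen for Nr4a1 or Ier2 was not detectable for Egr3 at this depth. The ratio of Egr1 was above that of Egr2 by 0.67 (interval 0.27 to 1.07), and Egr2 minus Egr3 was -0.66 (-1.26 to -0.07). Egr1 made up 84.1% of the EGR family per kilobase in the C57BL/6 library and 87.6% in the Ch25h-/- library, while Egr2 stood at 10.9% and 7.16%. The summed counts of the family had a log2 ratio of -0.04 (interval -0.14 to 0.05).

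Ier3 (ENSMUSG00000003541, chromosome 17, 35821684 to 35822923, plus strand), also known as IEX-1, had 1063 counts in the C57BL/6 library and 431 in the Ch25h-/- library. These equal 62.1 and 27.2 CPM, a log2 ratio of -1.19 (interval -1.36 to -1.03), again wholly beyond 2-fold. Its ratio could not be separated from that of Nr4a3, since their difference of -0.13 had an interval of -0.31 to 0.06. It lay below that of each of the 7 remaining members, with intervals of the difference that excluded 0.

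Ier2 (ENSMUSG00000053560, chromosome 8, 84661331 to 84662852, minus strand), a small nuclear protein gene, had 2346 and 1631 counts, or 137 and 103 CPM, a log2 ratio of -0.41 (interval -0.51 to -0.32). Ier5 (ENSMUSG00000056708, chromosome 1, 155096361 to 155099636, minus strand), the HSF1 partner, had the most counts of all members, 6710 in the C57BL/6 library and 4597 in the Ch25h-/- library. Its 392 and 290.2 CPM gave the narrowest interval, -0.49 to -0.38 around a ratio of -0.43. Ier2 and Ier5 did not differ in ratio beyond counting error (0.02, interval -0.09 to 0.13). Of the IER genes' summed CPM per kilobase, Ier3 was 20.8% in the C57BL/6 library and 13.3% in the other, Ier2 was 34.0% and 37.5%, and Ier5 was 45.2% and 49.1%. Without Ier3 the IER counts had a ratio of -0.43 (interval -0.48 to -0.38), against -0.49 (-0.54 to -0.45) with it.

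**Figure D3:**
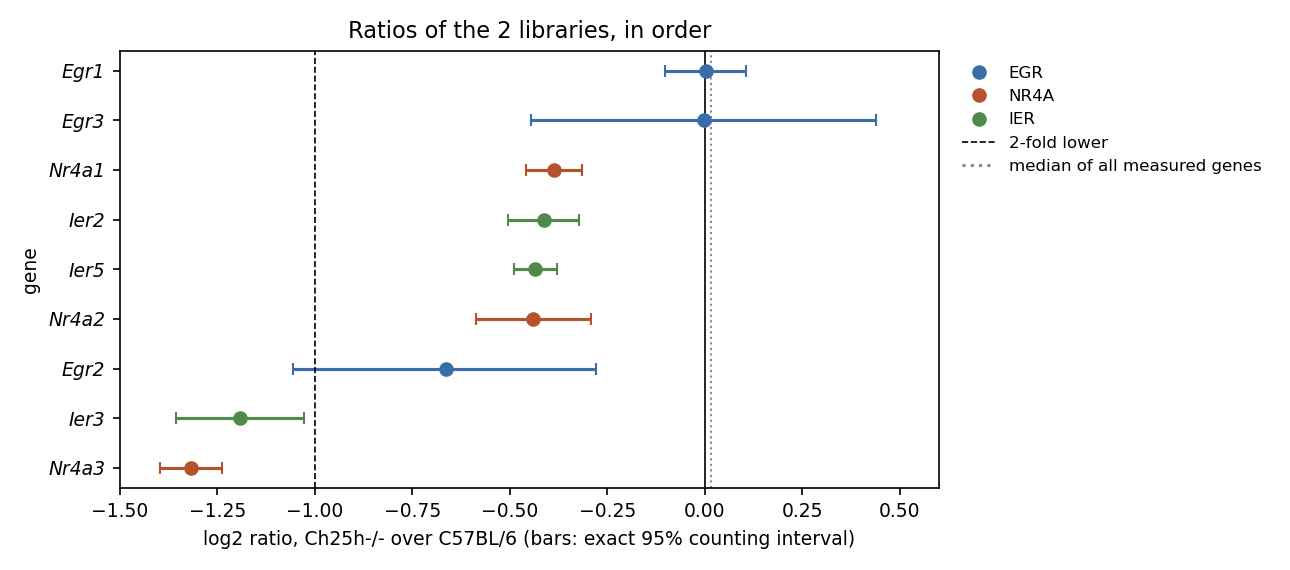
Log2 ratio of each gene (horizontal axis, Ch25h-/- over C57BL/6) with its exact 95% counting interval, in order and coloured by family, with lines at 0, at 2-fold lower and at the median of all measured genes. Nr4a3 and Ier3 lie left of the 2-fold line, 4 genes gather between -0.39 and -0.44, and Egr1 and Egr3 sit at 0.00.

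The order of the 9 ratios cut across the 3 families. Of 36 pairs of members, 20 had a difference whose interval excluded 0 and 16 did not. None of the 6 pairs among Nr4a1, Nr4a2, Ier2 and Ier5 did, and their ratios spanned only -0.39 to -0.44. Egr1 lay above each of these 4, by 0.39 from Nr4a1 (interval 0.26 to 0.52) to 0.44 from Nr4a2 (0.26 to 0.62). Egr3 had nearly the same differences from them, but with intervals that held 0, such as 0.43 from Ier5 (-0.01 to 0.88). The differences of Egr2 from the same 4 genes also had intervals that held 0. Intervals are not adjusted for the number of pairs and cover counting error only.

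**Figure D4:**
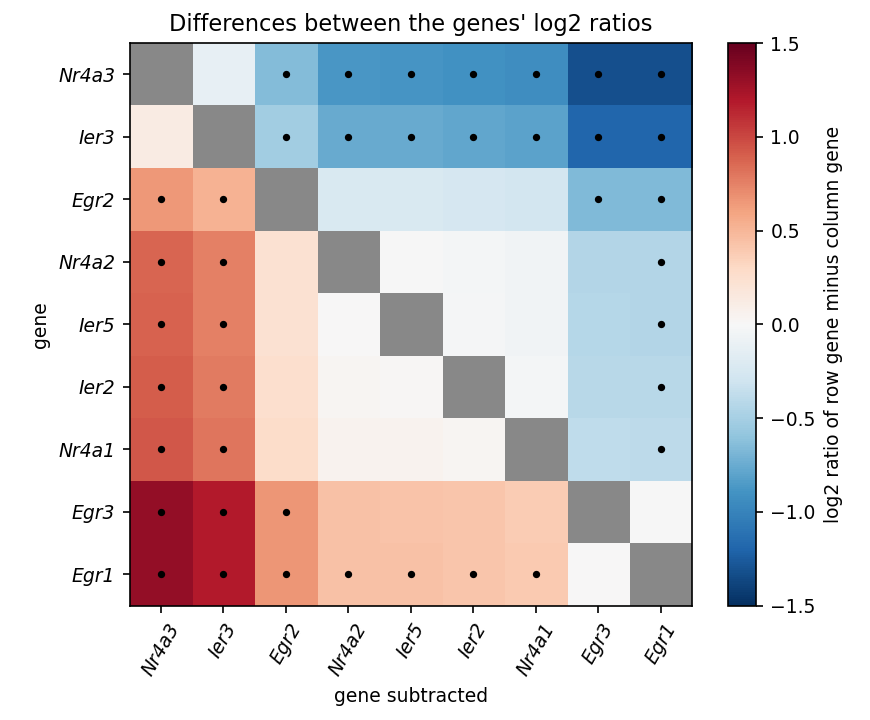
Difference between the log2 ratios of each pair of genes, row minus column, as colour (scale from -1.5 to 1.5), with a dot where the exact 95% interval excluded 0 and the diagonal in grey. Rows Nr4a3 and Ier3 are set apart from the 7 remaining genes and not from each other, and the block of Nr4a2, Ier5, Ier2 and Nr4a1 holds no dot.

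For an order of the members' levels, CPM were divided by exon length. In the C57BL/6 library the order was Ier5 (119.7 CPM per kilobase), Ier2 (90.1), Nr4a1 (62.3), Ier3 (54.9), Nr4a3 (46.1), Egr1 (20.4), Nr4a2 (13.3), Egr2 (2.65) and Egr3 (1.22), and with this length no neighbours in that order had overlapping counting intervals. Ier5 was at percentile 97.7 of measured genes by this level and Egr3 at percentile 13.3. In the Ch25h-/- library Egr1 (20.5) stood above Nr4a3 (18.5), the reverse of the C57BL/6 order. Their counting intervals, 19.4 to 21.5 for Egr1 and 17.6 to 19.4 for Nr4a3, barely cleared each other. Ier3 there was at 24.1 CPM per kilobase, and Egr2 (1.67) and Egr3 (1.22) had overlapping intervals. The separations depend on the length used. With the longest transcript, Nr4a3 (18.5 to 20.3 CPM per kilobase) and Egr1 had overlapping intervals in the Ch25h-/- library. Nr4a1 then overlapped Ier2 in each library, at 82.9 to 88.4 against 86.5 to 93.8 in the C57BL/6 library and 63.0 to 68.0 against 64.4 to 71.0 in the Ch25h-/- library.

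The genes with the most similar level in each library were found as the smallest distance in log2 CPM over the 2 libraries. Only measured genes outside the 9 members were searched, without provisional symbols (Gm with a number, or ending in Rik). Camta2 (222 and 170.1 CPM) was nearest to Nr4a1, Fam117a (54.5 and 39.5 CPM) to Nr4a2, Rapgef2 (140.1 and 104 CPM) to Ier2 and Uba7 (391 and 292 CPM) to Ier5. Cdk16 (92.3 and 91.5 CPM) was nearest to Egr1, Ercc8 (9.18 and 5.55 CPM) to Egr2, Cbr4 (5.38 and 5.30 CPM) to Egr3 and Tmem63b (63.3 and 27.4 CPM) to Ier3. Nr4a3 had no gene within 0.1, and its nearest was Map3k14 (268 and 122 CPM), the gene of the NF-kB-inducing kinase, at 0.14. Within 0.1 of Egr1 there were 82 genes, so this likeness over 2 libraries is a weak one.

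Most of the members are compact genes. Of the 9, 6 had at most 3 exons in their longest transcript, against 19.1% of 11541 measured protein-coding genes, and Ier2 and Ier5 had 1 exon. The NR4A genes had 8 exons each, the same as the median of measured genes. No other annotated gene overlapped any of the 9, so no annotated antisense partner shares their reads. The pentamer ATTTA, the core of AU-rich elements that mark transcripts for rapid decay by proteins such as ZFP36, was present in the 3′ untranslated region of 8 of the 9 and of 70.0% of measured genes with such a region. Its density was 8.16 per kilobase in Ier3, 5.52 in Nr4a1 and 1.62 in Nr4a3, against a median of 1.30 over measured genes, while Ier2 had none. The median of the members was 2.26, and 7 of the 9 lay above the median of measured genes. The longer form TTATTTATT was in no member and in 8.37% of measured genes.

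The stretches of 30 bases below hold 2 copies of ATTTA each and come from the 3′ untranslated regions of Ier3 (chr17:35822485-35822514, plus strand) and Nr4a1 (chr15:101274702-101274731, plus strand), the members with the highest density, with ATTTA in capitals.
Ier3: taattaatATTTAtgtATTTAtgtatatcc
Nr4a1: ATTTAtatttgtgtattttcctggATTTAt

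Most other early response genes lay below 0 too. Of 36 listed, 35 were measured, 13 were called lower and none higher, against 5.77% and 2.07% of all measured genes. Of the 35, 34 lay below 0 (48.2% of all measured genes did). Their median log2 ratio was -0.85, against 0.01 over all measured genes. The list was chosen with earlier results of these data known, so these counts describe the listed genes and test nothing. Fosb, an AP-1 subunit gene, went from 571 to 126 CPM (-2.18), Atf3 from 97.1 to 26.4 CPM (-1.88), Dusp1, a MAP kinase phosphatase gene, from 522 to 159.7 CPM (-1.71), and Klf4 from 94.7 to 29.0 CPM (-1.71). The kinase gene Pim1, the highest of the list in CPM, stood at -0.09. Nr4a3 and Ier3, at -1.32 and -1.19, lay within the range of the called genes of that list, and Egr1, at 0.00, was above all of it but Myc (0.16).

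Genes of the ERK to SRF and the CREB, NFAT and MEF2 routes had medians closer to 0 than the members. These are transcript levels of the route genes, and the activity of the routes was not measured. None of the 16 genes of the ERK to SRF route was called, and their median was -0.01. The SRF cofactor gene Mrtfa (236 to 148 CPM, -0.68) and the kinase genes Rps6ka3 (140.4 to 207 CPM, 0.56) and Rps6ka1 (0.41) were farthest from 0, followed by Elk1 at -0.31, and Mknk2, the highest in CPM, was at -0.16. None of the 17 genes of the CREB, NFAT and MEF2 route was called, with a median of 0.18. The CREB coactivator genes Crtc3 (97.6 to 67.2 CPM, -0.54) and Crtc2 (-0.46) and the NR4A partner gene Rxrb (-0.39) were lowest of those named by the rule, Ppp3cb was at 0.35, and Nfatc3, the highest in CPM, was at 0.12.

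The NF-kB genes, which bear on Ier3, had 10 of 11 ratios below 0, a median of -0.60 and no call. Tnfaip3 (1503 to 761 CPM, -0.98), Rel (223 to 113 CPM, -0.97), Nfkbib (-0.76) and Nfkbia (-0.67) were farthest from 0. With total counts as the scaling, 1 of them, Tnfaip3, was called lower. In the HSF1 and PP2A list, which bears on Ier5, Hspa1b (279 to 19.8 CPM, -3.82) and Hspa1a (172 to 14.6 CPM, -3.56) were called lower of 11 measured, and the median was -0.07. These are near-identical copies, so their single values are uncertain. Bag3 stood at -0.88, Dnajb1 at -0.61 and Hspa8, the highest in CPM, at -0.02.

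Of the 4 measured relatives by name or binding, 1 ratio lay below 0. Egr4 and Wt1 had 0 counts in each library, which allows up to 3 counts. The EGR corepressor genes Nab1 (128 to 163 CPM, 0.35) and Nab2 (40.3 to 47.4 CPM, 0.24) were above 0, Ier3ip1, related to Ier3 by name and not by sequence, was at 0.12, and Ier5l (46 and 25 counts) was at -0.77 with an interval of -1.53 to -0.04. Of 14 lymphocyte genes linked to EGR2, EGR3 or NR4A proteins, such as those of T cell tolerance and exhaustion, none was called, 4 lay below 0 and the median was 0.30. Fasl (70.1 to 121.0 CPM, 0.79), Tox (0.73), Rnf128 (0.72) and Tnfrsf9 (449 to 671 CPM, 0.58) were farthest from 0.

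**Figure D5:**
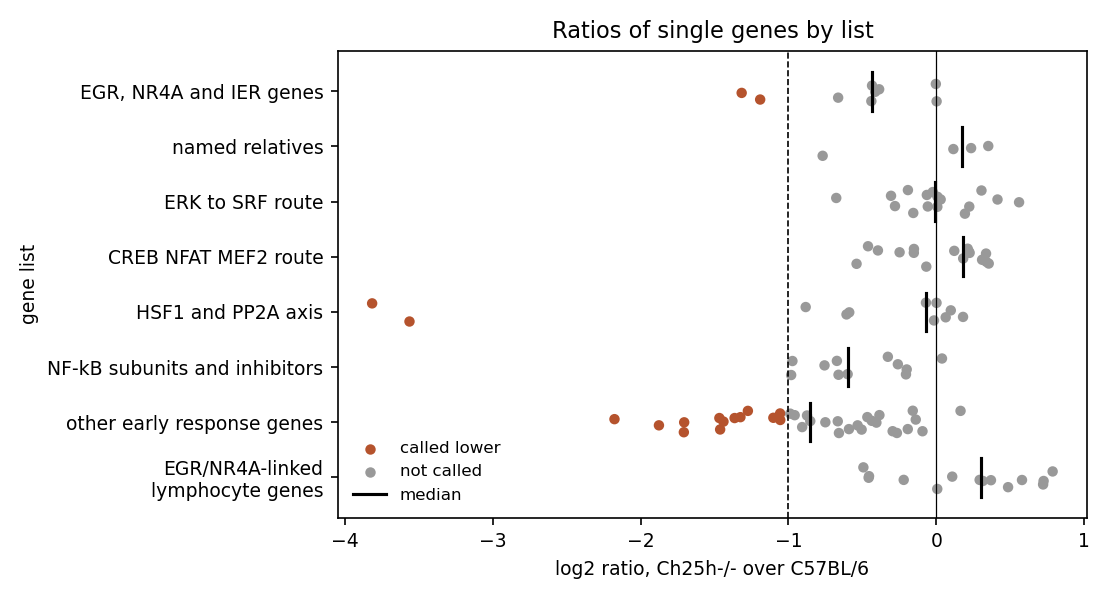
Log2 ratios (horizontal axis, Ch25h-/- over C57BL/6) of single genes in the 9 early response genes described here and in 7 related lists, with list medians as black bars and called genes in red. The other early response genes have a median of -0.85 and 13 called genes, whereas the ERK to SRF and the CREB, NFAT and MEF2 routes hold no call.

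Several marker lists differed between the libraries, some lower and some higher, given here as C57BL/6 first and Ch25h-/- next. Over all measured genes, 5.77% were called lower and 2.07% higher. Conventional dendritic cell markers summed to 1667 and 702 CPM, 5 of 6 measured markers were called lower, and their median was -1.78 (Fscn1 746 to 171 CPM, Batf3 -2.14). The other measured marker, Itgax, was at 0.30. Of the 9 listed, Xcr1, Clec9a and Cd209a did not reach a mean of 1 CPM, and Xcr1 had 0 counts in the C57BL/6 library. Macrophage markers summed to 580.4 and 411 CPM, with 9 of 9 ratios below 0, a median of -0.76 and 3 called lower, among them C1qa (-1.40), and with Csf1r, the highest in CPM, at -0.44. B cell markers summed to 1264 and 788 CPM, with a median of -0.61 and 1 of 7 called lower (Ebf1, -1.10), while Cd22, the highest in CPM, was at -0.61. For Ly6C-low monocyte markers the sums were 2600.2 and 3071 CPM, but 6 of 9 ratios were below 0, the median was -0.25 and 1 marker was called lower (Fcgr4, -1.13). The higher sum came mainly from Itgal (1341 to 1784 CPM, 0.41) and Spn (471 to 676 CPM, 0.52). NK cell markers went from 6376 to 9958 CPM, with a median of 0.88 and 3 of 8 called higher, among them Ncr1 (1.46). Gzma, the highest of them in CPM, was at 0.58 and not called. Neutrophil markers went from 1049 to 1863 CPM, with a median of 0.90. Of these, 4 of 8 were called higher (Ngp 322 to 646 CPM, Ly6g 8 and 41 counts) and 1 of 8 ratios was below 0. T cell markers summed to 228 and 359.6 CPM with no call, 4 of 8 ratios below 0 and a median of 0.06. That difference came from Lck (186 to 319.6 CPM, 0.78), and the 7 remaining T cell markers summed to 41.1 and 40.0 CPM. The part of these cell types in the ratios of the 9 genes was not tested.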

How the data were processed

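Sorted spleen cells of 2 genotypes gave 1 RNA library each. The authors deposited 1 table of raw counts (whole reads assigned to each gene), which entered unchanged. Per the submitters' processing notes, edgeR 3.26.8, Subread 1.5.2 with featureCounts, the aligner GSNAP and FastQC 0.11.9 were used, with mm10 and GRCm38 as builds. The strand setting and the handling of multi-mapping reads are not given in the sources used here.

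Counts were scaled with TMM factors (edgeR 4.0.16 in R 4.3.3), 1.01 for C57BL/6 and 0.991 for Ch25h-/-. Measured genes are those whose mean reached 1 CPM. Ratios carry Clopper-Pearson intervals, and differences between genes exact conditional odds ratio intervals (scipy 1.17.1, Python 3.11.15), all for counting error only, since without molecular identifiers 1 molecule can give several reads. A gene at 0 counts would be set to 3 counts, and no member was. Positions, exon lengths and 3′ regions come from GENCODE M21 (GRCm38), which holds 30126 of the 30538 gene IDs, and promoters from RefSeq. The calculation was tested on simulated data.

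The members and lists were chosen with earlier results of these data known. All members are named; from each pathway list the rule takes the 4 genes farthest from 0 and the one highest in CPM, from each marker list 1 of each, and for each member the nearest gene. Myc, Adgre1, Itgax, Spn, Xcr1, Clec9a and Cd209a were chosen after values were seen. So were the descriptions of gene structure, AU-rich elements, CREB site cores, GC content and TATA boxes. Other settings tried were upper quartile scaling, totals alone, size factors of DESeq2 1.42.0, leaving the 20 most abundant genes out of scaling and totals, a stricter (5 CPM) and a looser filter (1 count), a prior count (2), calls that need the interval past 2-fold, and the longest transcript as length. Figures used matplotlib 3.10.9.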

Additional observations from a re-analysis of the deposited data

How the results depend on the processing

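Nr4a3 and Ier3 were the members called lower, and none was called higher, under all 8 alternatives. The stricter and looser filters could not change this, since every member passed them. The 45 recomputed member ratios stayed within their counting intervals, and scalings moved all ratios by 0.03 or less in size. Over all genes, against 691 lower and 248 higher, a filter at 5 CPM left 347 lower and 120 higher, an interval wholly beyond 2-fold left 318 lower and 67 higher, and no filter beyond 1 count gave 1031 lower and 435 higher. These 2 stricter settings can only remove calls and the looser one only adds them. Total counts alone called 1 NF-kB gene lower. No filter beyond 1 count moved the median of the HSF1 and PP2A list from -0.07 to -0.33 by adding 1 gene.

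Shares per kilobase depend on the length used. With the longest transcript in place of all exons, Egr1 was 82.3% and Egr2 12.2% of the EGR family in the C57BL/6 library. In the NR4A family, Nr4a1 was 57.5% in the C57BL/6 and 68.2% in the Ch25h-/- library, Nr4a2 was 10.2% and 11.7%, and Nr4a3 was 32.4% and 20.2%. Depth limits Egr2 and Egr3, whose intervals reach 0.39 and 0.44 to each side, against 0.05 for Ier5. Variation between mice, sorts and libraries could not be measured with 1 library per genotype. For the same reason, differences in cell preparation and sorting cannot be told apart from genotype in any ratio given here.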
